A study of Mus musculus with 384 samples.

Results

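The major histocompatibility complex (MHC) genes described here are 10 rows of a table of 23420 genes, chosen by name. They are H2-K1, H2-D1, B2m, Tap1 and Psmb8 of the class I pathway and H2-Aa, H2-Ab1, H2-Eb1, Cd74 and Ciita of the class II pathway. All 10 were found in the table. Their RNA was measured by SmartSeq2, a full-length single-cell method without molecular identifiers, in cells sorted from the spinal cords of mice labelled Optn KO, a knockout of the autophagy receptor optineurin. Every cell carries this genotype, and with no other genotype analysed here nothing can be said of what the knockout does. The labels give no strain, age or sex, and no further allele or treatment. The sort used antibodies to CX3CR1, CD11b and CD45. The cells belong to 2 replicates of 2 plates each, 77 cells on each plate of replicate 1 and 85 and 87 cells on the plates of replicate 2. Separate mice are not stated, so the spread between replicates may be technical.

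MHC class I molecules show peptides from inside the cell to CD8 T cells and are made by nearly every nucleated cell. Each one pairs a heavy chain with beta-2 microglobulin after the immunoproteasome has cut the peptide and the TAP transporter has moved it into the endoplasmic reticulum. MHC class II molecules show peptides taken up from outside to CD4 T cells, and their genes are switched on by the coactivator CIITA, chiefly in B cells, dendritic cells and activated macrophages. Neutrophils fill their granules while they mature in the bone marrow, and transcripts of granule proteins decline in mature cells.

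The series title calls the cells microglia, but 0 cells had 3 or more of 11 microglia marker genes above 0. The sum of S100a8 and S100a9, which encode calprotectin, was at least 10000 TPM (transcripts per 1000000, a share of all transcripts that is corrected for length) in 87.7% of cells, 67 and 64 cells on the plates of replicate 1 and 77 and 78 on those of replicate 2. These are called neutrophils here, and all of them had at least 3 of 9 neutrophil markers above 0, as had 31 of the 40 other cells. That list includes S100a8 and S100a9, which define the class, and Ltf, Camp and Ngp, which enter the granule score below. The marker count is therefore not a separate test of the name. No cell lay between 4019 TPM, the highest of the 40 other cells, and 12512 TPM, the lowest neutrophil. Among the other cells, 2 had 3 or more B cell markers, 3 had 3 or more T or NK cell markers, 28 of the rest had 3 or more monocyte markers and 7 had fewer than 3 of any of these lists. The neutrophils of each plate were ranked by the mean log2(TPM + 1) of 8 granule genes (Ltf, Camp, Ngp, Lcn2, Chi3l3, Mmp8, Cd177 and Hp) and divided into 3 classes. The granule-low class held 94 cells, the granule-middle class 98 and the granule-high class 94. Depth is unknown from TPM. The median number of genes above 0 was 1367 in granule-low, 1621.5 in granule-middle, 1980 in granule-high and 3027.5 in other cells.

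Of the 10 members, 7 sit in the MHC region of chromosome 17 in mouse build GRCm38 (mm10). H2-K1 spans 33996017 to 34000347 on the minus strand and H2-D1 spans 35262730 to 35267499 on the plus strand. Between these heavy chain genes lie H2-Ab1 (34257689 to 34269419), H2-Aa (34282744 to 34287823), H2-Eb1 (34305867 to 34316674), Tap1 (34187553 to 34197225) and Psmb8 (34197721 to 34201454). B2m is on chromosome 2 (122147686 to 122153083) and Ciita on chromosome 16 (10480059 to 10528418).

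Promoter sequences from RefSeq (GRCm38.p6) were matched for 7 of the 10 members; H2-Ab1, Cd74 and Ciita had no entry. The 200 bases before the RefSeq start are printed for 5 members: H2-K1, H2-D1, B2m, H2-Aa and H2-Eb1. Tap1 and Psmb8 had entries but are not printed. Any link between these letters and the RNA levels was not tested. Capitals mark the core motifs searched on both strands.
H2-K1 (chr17:34000348-34000547, minus strand): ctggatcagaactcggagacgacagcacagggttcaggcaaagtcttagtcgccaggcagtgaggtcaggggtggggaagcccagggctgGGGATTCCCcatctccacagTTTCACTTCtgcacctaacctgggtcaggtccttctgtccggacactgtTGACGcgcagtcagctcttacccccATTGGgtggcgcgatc
H2-D1 (chr17:35262894-35263093, plus strand): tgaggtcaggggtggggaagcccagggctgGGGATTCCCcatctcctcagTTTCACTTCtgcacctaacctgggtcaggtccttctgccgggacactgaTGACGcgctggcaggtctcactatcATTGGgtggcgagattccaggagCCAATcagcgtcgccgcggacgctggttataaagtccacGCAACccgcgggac
B2m (chr2:122147487-122147686, plus strand): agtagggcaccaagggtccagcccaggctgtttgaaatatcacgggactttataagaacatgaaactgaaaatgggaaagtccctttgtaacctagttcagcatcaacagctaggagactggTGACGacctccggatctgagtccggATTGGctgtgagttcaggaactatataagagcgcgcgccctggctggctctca
H2-Aa (chr17:34287824-34288023, minus strand): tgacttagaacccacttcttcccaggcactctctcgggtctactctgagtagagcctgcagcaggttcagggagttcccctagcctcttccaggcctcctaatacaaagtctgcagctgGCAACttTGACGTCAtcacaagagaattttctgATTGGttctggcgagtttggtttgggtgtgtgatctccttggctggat
H2-Eb1 (chr17:34305667-34305866, plus strand): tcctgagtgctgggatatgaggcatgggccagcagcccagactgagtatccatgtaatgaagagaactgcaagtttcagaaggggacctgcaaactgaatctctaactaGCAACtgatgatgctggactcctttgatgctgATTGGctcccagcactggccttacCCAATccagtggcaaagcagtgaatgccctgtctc

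The kappa B core GGGATTCCC (GGGAATCCC on the other strand) and the interferon response core GAANNGAAA (TTTCNNTTC on the other strand) are in both heavy chain windows and in neither the B2m nor the class II windows above. The kappa B core is at positions -110 to -102 of H2-K1 and -170 to -162 of H2-D1, counted from the RefSeq start, and is in 60 of 27025 promoter windows of this length (0.222%). The interferon response core is in 5.003% of them. The class II windows of H2-Aa and H2-Eb1 hold the X1 box core GCAAC (25.4% of all windows) followed by the Y box core CCAAT or its reverse ATTGG (30.02%). Neither core is particular to them: the X1 box core is also in the H2-D1 window, and the Y box core in the H2-K1, H2-D1 and B2m windows. The core TGACG or its reverse CGTCA of the cyclic AMP response element is in 15.8% of windows. Of the windows printed above, it is in those of H2-K1, H2-D1, B2m and H2-Aa, and in H2-Aa both strands of it overlap as TGACGTCA. A match is a description of these letters and not a bound site. Only these exact letters were searched, so a window without a match may hold the same element with other letters or spacing. The RefSeq start of H2-D1 lies inside the GENCODE gene interval given above.

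The 2 class I heavy chains, which bind the peptide, were 4.16-fold (H2-D1) and 4.19-fold (H2-K1) higher in granule-low than in granule-high neutrophils. H2-D1 averaged 7451 TPM in replicate 1 and 7773 TPM in replicate 2 of the granule-low class. It averaged 4326 and 4052 TPM in the granule-middle class, and 1694 and 1970 TPM in the granule-high class. The classes stepped down in the same order in both replicates, and their replicate means did not overlap. Single granule-low cells ran from 194.9 TPM through a median of 7240 to 21047 TPM, and granule-high cells from 32.04 through 1681 to 4630 TPM. Of the 94 granule-low cells, 73 were above every granule-high cell. The log2 fold of granule-low over granule-high was 2.06 (SE 0.10, adjusted p = 4.24e-06, limma), higher in 4 of 4 plates.

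H2-K1, the other heavy chain, averaged 1247 and 1290 TPM in granule-low cells of replicates 1 and 2, 459 and 602 TPM in granule-middle cells, and 327.6 and 278.3 TPM in granule-high cells. Its replicate means also stepped down without overlap, but single cells mixed more: 11 of 94 granule-low and 16 of 94 granule-high cells were listed at 0. The granule-low cells had a median of 775 TPM and a highest value of 5745 TPM, and the granule-high cells a median of 240 TPM and a highest value of 1929 TPM. H2-K1 rose by a log2 fold of 2.07 (SE 0.21, adjusted p = 0.000449, limma), and its plate means did not overlap between the classes. H2-K1 and H2-D1 have close paralogs whose reads the authors' counting could split, so the share given to each gene is uncertain.

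B2m, the light chain that every class I molecule shares, changed less. It averaged 3108 and 3743 TPM in granule-low cells of replicates 1 and 2, 2313 and 2090 TPM in granule-middle cells, and 2006 and 1949 TPM in granule-high cells. The log2 fold was 0.79 (SE 0.12, adjusted p = 0.00397, limma). That call was lost, at a fold of 0.14, when log2(TPM + 1) was averaged over cells in place of TPM (adjusted p = 0.799, limma), and without the filter on low values (adjusted p = 0.238, limma). Because the light chain moved less than the heavy chains, the ratio of B2m to the sum of H2-K1 and H2-D1 was lowest where class I was highest. On the log2 scale it was -1.48 and -1.28 in granule-low cells of replicates 1 and 2, and -0.01 and -0.21 in granule-high cells. The difference between these ratios was not tested.

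**Figure D1:**
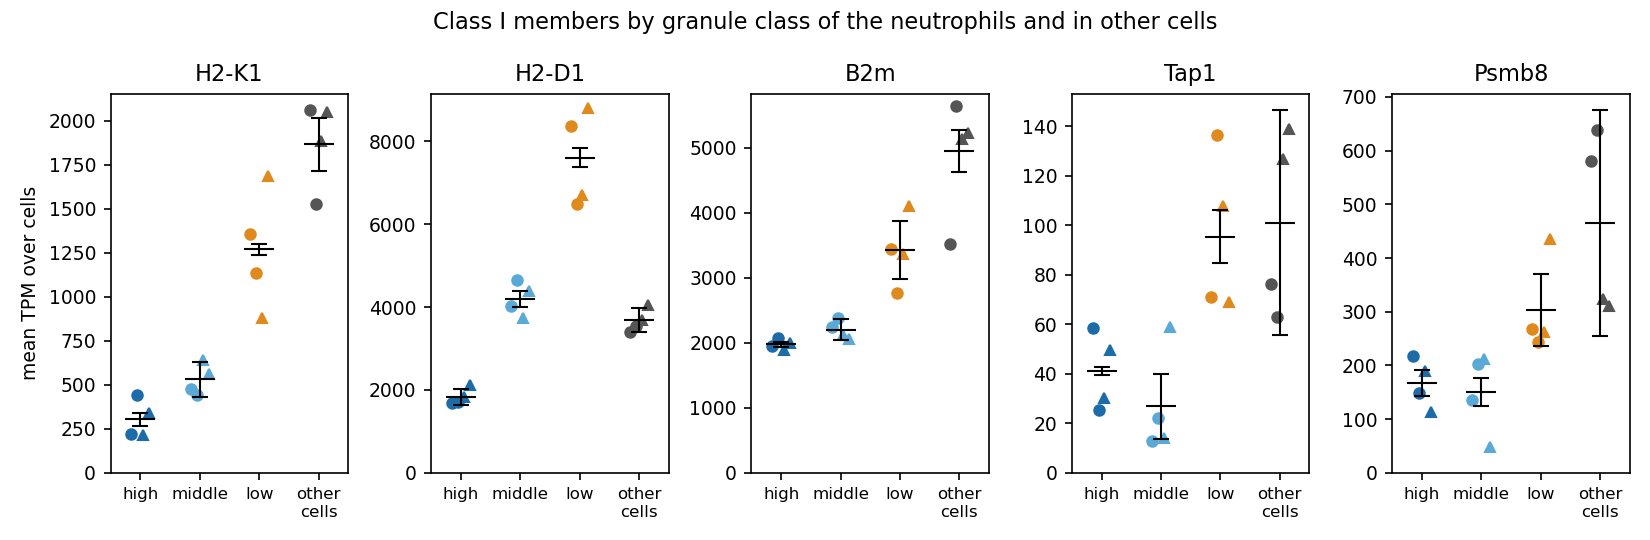
Mean TPM over cells (vertical axes, linear from 0) of the 5 class I members in the granule-high, granule-middle and granule-low classes of neutrophils and in other cells. Points are plates (circles replicate 1, triangles replicate 2), and bars are the mean ± SD of the 2 replicates; H2-D1 is highest in the granule-low class (7612 ± 227.6 TPM) and H2-K1 and B2m in other cells (1867 ± 150.1 and 4950 ± 328.4 TPM).

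The peptide suppliers were sparse. Tap1, a subunit of the peptide transporter, was above 0 in 17 of 94 granule-low and 19 of 94 granule-high cells and averaged 95.4 ± 10.7 and 41.1 ± 1.495 TPM (SD, n = 2). Psmb8, a catalytic subunit of the immunoproteasome, was above 0 in 26 and 38 cells and averaged 302.7 ± 66.7 and 167.3 ± 23.8 TPM (SD, n = 2). Neither passed the test, with log2 folds of 1.19 for Tap1 (SE 0.49, adjusted p = 0.158, limma) and 0.84 for Psmb8 (SE 0.34, adjusted p = 0.150, limma). The sign for Psmb8 turned, to -0.90, when log2(TPM + 1) was averaged over cells in place of TPM.

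Of the 10 members, 5 passed the filter on low values in this comparison; 3 rose, 0 fell and 2 were not called. Of all 5172 genes tested, 12.4% were called, 8.57% as higher and 3.83% as lower in granule-low cells. The median log2 fold of the 5 members was 1.19 and that of all genes tested was 0.28. The 5 class II members were above 0 in fewer than 10 of the cells compared and were not tested.

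S100a8, S100a9, the granule genes and the ribosomal precursor Rn45s took a mean of 15.1% of all TPM in granule-low and 38.5% in granule-high cells. TPM shares a fixed total, so these genes were also left out and the rest rescaled to 1000000. The median log2 fold of all genes then moved from 0.28 to -0.20, and the share of calls that were higher in granule-low cells moved from 69.1% to 46.5%. H2-D1 and H2-K1 kept their calls, with rescaled log2 folds of 1.61 (adjusted p = 0.000331, limma) and 1.55 (adjusted p = 0.00799, limma). B2m did not keep its call (0.27, adjusted p = 0.240, limma). Relative to the median of all genes, H2-D1 was 1.78 before and 1.82 after rescaling, H2-K1 1.79 and 1.76, and B2m 0.50 and 0.47.

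Genes detected and the summed monocyte markers also moved with granule level. The monocyte list summed to 1105 and 541 TPM in granule-low cells of replicates 1 and 2 and to 2934 and 2923 TPM in granule-high cells. Its gene Ly6c2 averaged 533 and 2905 TPM in the 2 classes, Csf1r went the other way (221.2 and 22.2 TPM), and S100a4 and F13a1 were listed at 0 in both. The part of these markers in the class I result was not tested. Among neutrophils with 1000 to 2500 genes above 0, the log2 folds were 2.03 for H2-D1, 2.18 for H2-K1 and 0.77 for B2m. Without the 23 neutrophils that had 5 or more of 16 proliferation genes above 0 they were 2.07, 2.17 and 0.77. Across single neutrophils of a plate, the Spearman correlation of H2-D1 with the granule score ran from -0.79 to -0.66 and that of H2-K1 from -0.46 to -0.15, and that of B2m from -0.33 to 0.04 across 0, over 64 to 78 cells per plate that share the TPM total. The Spearman correlation of H2-D1 with genes detected ran from -0.70 to -0.49.

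**Figure D2:**
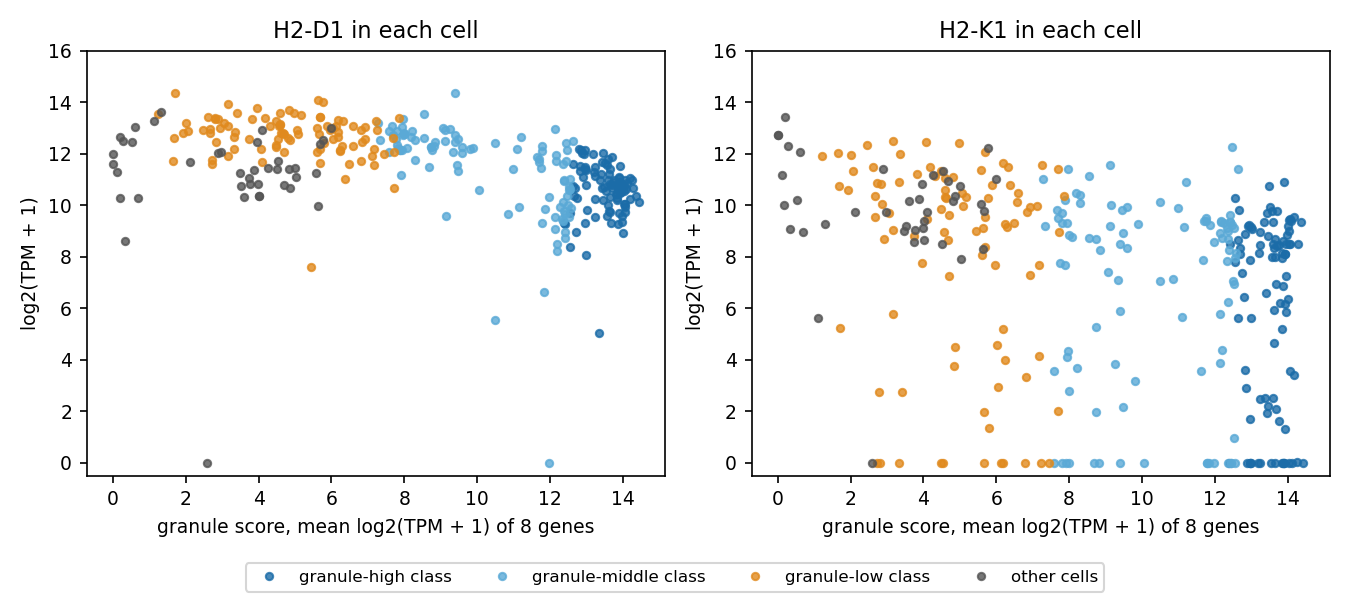
H2-D1 (left) and H2-K1 (right) as log2(TPM + 1) in each cell (vertical axes) against the granule score (horizontal axes), coloured by cell class. H2-D1 is lower at high granule scores, while H2-K1 is spread more widely and is listed at 0 in 43 neutrophils.

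Set against the other cells, neutrophils as a whole were lower in 4 of the 6 members tested. H2-K1 averaged 675 and 722 TPM in neutrophils of replicates 1 and 2 and 1760 and 1973 TPM in other cells, 2.67-fold higher in the latter (log2 fold of neutrophils over other cells -1.42, SE 0.20, adjusted p = 0.000215, limma). B2m averaged 2473 and 2587 TPM in neutrophils and 4718 and 5182 TPM in other cells (log2 fold -0.97, SE 0.14, adjusted p = 0.000239, limma). Both were lower in neutrophils in 4 of 4 plates, and plate means did not overlap. Relative to the median of all genes tested, H2-K1 was -0.81 and B2m -0.36, and 41.1% of genes had a lower fold than B2m. With rescaled TPM the folds were -1.12 for H2-K1 (adjusted p = 0.00373, limma) and -0.57 for B2m (adjusted p = 0.0128, limma). Both calls were lost in cells with 1000 to 2500 genes above 0, where the folds were larger (H2-K1 -2.13 and B2m -1.46, adjusted p = 0.0917 for each, limma), and without the filter on low values (adjusted p = 0.189 for each, limma).

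H2-D1 did not follow H2-K1. It averaged 4488 and 4591 TPM in neutrophils of replicates 1 and 2 and 3484 and 3885 TPM in other cells (log2 fold 0.30, SE 0.13, adjusted p = 0.115, limma). This value depended on the cells and the scaling. It was 0.59 with rescaled TPM (adjusted p = 0.0101, limma) and 0.62 without the 12 other cells that had 5 or more neutrophil markers (adjusted p = 0.0169, limma). It turned to -0.20 when neutrophils needed at least 50000 TPM of S100a8 and S100a9, and to -0.19 in cells with 1000 to 2500 genes above 0.

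The balance between the heavy chains therefore differed between the classes. H2-D1 was 85.5% to 87.6% of the summed H2-K1 and H2-D1 TPM over the 4 plates of neutrophils, and 62.2% to 69.9% in other cells. The ratio of H2-D1 to H2-K1 was 6.001 in granule-low, 7.96 in granule-middle and 6.05 in granule-high cells, against 1.97 in other cells. The granule classes overlapped in this ratio over plates (79.5% to 91.3% H2-D1), and neutrophils and other cells did not. This ratio was not tested, and with 2 pairs the smallest two-sided exact permutation p is 0.5.

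Psmb8 averaged 202.1 and 209.6 TPM in neutrophils of replicates 1 and 2 and 614 and 316.7 TPM in other cells (log2 fold -1.10, SE 0.35, adjusted p = 0.0380, limma). That call was lost in 6 of 15 alternatives, among them rescaled TPM (-0.69, adjusted p = 0.187, limma), pseudocount 0.1 (adjusted p = 0.0590, limma) and cells with 1000 to 2500 genes above 0 (-1.40, adjusted p = 0.234, limma). The fold was -1.60 in replicate 1 and -0.59 in replicate 2. Tap1 averaged 53.6 and 54.4 TPM against 68.8 and 133.1 TPM and did not pass (log2 fold -0.81, SE 0.53, adjusted p = 0.283, limma). It passed as lower when log2(TPM + 1) was averaged over cells (-1.85, adjusted p = 0.00443, limma). Of the 10 members, 6 were tested against other cells; 4 fell (H2-K1, B2m, Psmb8 and Cd74), 0 rose and 2 were not called. Of 7091 genes tested, 22.6% were called, 5.23% as higher and 17.4% as lower in neutrophils. The median log2 fold was -1.03 over the 6 members and -0.61 over all genes. Rescaling moved the latter to -0.20 and the share of calls that were higher in neutrophils from 23.2% to 39.9%.

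**Figure D3:**
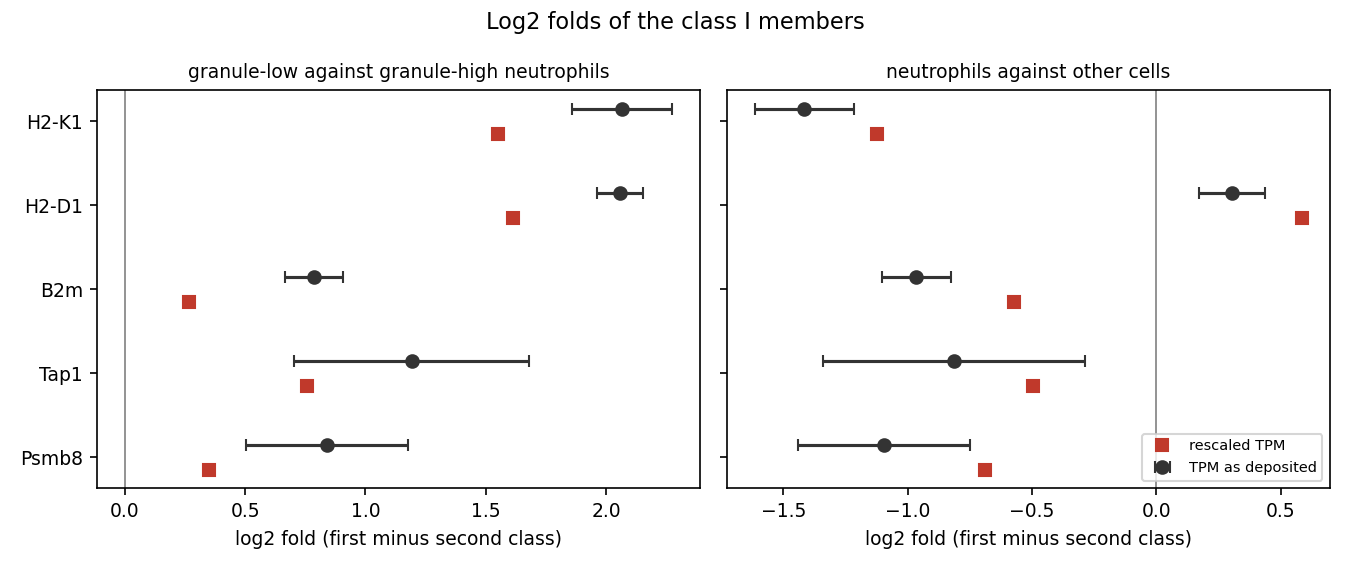
Log2 folds (horizontal axes) of the 5 class I members, granule-low over granule-high neutrophils on the left and neutrophils over other cells on the right. Circles with bars are the fold ± SE from limma on TPM as deposited and squares are the fold with rescaled TPM; H2-D1 at 0.30 is the only one of the 5 above 0 on the right.

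A direct comparison of granule-low neutrophils with other cells was added after the data were seen, and it shares its cells with the comparisons above. H2-D1 was 2.07-fold higher in granule-low neutrophils (log2 fold 1.05, SE 0.13, adjusted p = 0.00255, limma), with plate means of 6487 to 8800 TPM against 3393 to 4054 TPM. In cells with 1000 to 2500 genes above 0 this fold was 0.50 (adjusted p = 0.468, limma). H2-K1 did not pass (-0.55, SE 0.20, adjusted p = 0.0925, limma), except with averages of log2(TPM + 1) (-1.89, adjusted p = 0.00189, limma). Tap1 (-0.01, adjusted p = 0.992, limma) and Psmb8 (-0.56, adjusted p = 0.399, limma) likewise passed as lower only with those averages (-1.58 and -3.20, adjusted p = 0.0268 and 6.96e-06, limma). B2m passed as lower (-0.54, SE 0.14, adjusted p = 0.0368, limma) but lost the call in 8 of 13 alternatives, rescaled TPM among them (-0.41, adjusted p = 0.0840, limma). Cd74 was lower too (-3.22, SE 0.55, adjusted p = 0.00874, limma). It did not pass without the 5 other cells with B cell or with T or NK cell markers (-1.38, adjusted p = 0.529, limma). Cd74 was above 0 in 7 of 94 granule-low and 11 of 40 other cells. It entered this test only through the other cells, so its fold and p-value are a description. Of 5859 genes tested, 18.6% were called, 4.61% as higher and 14% as lower. The median log2 fold of all genes tested was -0.56. Relative to that median, B2m was 0.02, H2-K1 0.005 and H2-D1 1.61, so the fall of B2m was close to that of the median gene.

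By level, H2-D1 ran in the order granule-low, granule-middle, other and granule-high cells. H2-K1 and B2m ran in the order other, granule-low, granule-middle and granule-high cells. For these 3 genes no neighbours in the order overlapped in their replicate means, but some overlapped in plate means: H2-D1 between granule-middle and other cells, H2-K1 and B2m between other and granule-low cells, and B2m between granule-middle and granule-high cells. For Tap1 and Psmb8, other cells and the granule-low class overlapped.

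Class II RNA was rare, and nearly all of it came from 5 cells. H2-Aa and H2-Ab1, which encode the alpha and beta chains of I-A, were listed at 0 in all 98 granule-middle and all 94 granule-high cells, which allows shares of cells with a value above 0 of up to 3.06% and 3.19%. H2-Aa averaged 56.8 and 49.9 TPM in neutrophils of replicates 1 and 2 and 508 and 1993 TPM in other cells. H2-Ab1 averaged 46.8 and 46.3 TPM in neutrophils and 578 and 1593 TPM in other cells. H2-Eb1, the beta chain of I-E, averaged 11.8 and 14.4 TPM in neutrophils and 314.5 and 34.7 TPM in other cells. These averages describe a few cells: H2-Aa was above 0 in 2 neutrophils and in 3 of 40 other cells.

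The 5 cells had at least 3 of the 4 genes H2-Aa, H2-Ab1, H2-Eb1 and Cd74 above 0. They held 98.9% of the class II TPM of neutrophils and 99.1% of that of other cells. The highest was an other cell of replicate 2, with 33882 TPM of H2-Aa, 27084 of H2-Ab1, 589 of H2-Eb1 and 25235 of Cd74. It had 16437 TPM of Cd209a and 1877 TPM of Flt3, dendritic cell markers, the 2 of 9 genes of that list above 0. Of 8 monocyte markers it had 5 above 0, with Ccr2 at 2776 TPM and Ly6c2 listed at 0. Both other cells with B cell markers, in replicate 1, were also among the 5, with class II sums of 27322 and 18544 TPM and 6 and 5 of 6 B cell markers.

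The remaining 2 were granule-low neutrophils by the S100 rule, 1 in each replicate, with class II sums of 21236 and 20802 TPM. They had S100a8 plus S100a9 sums of 38587 and 17941 TPM and also 6 and 5 of the 6 B cell markers above 0, such as Cd79a, a chain of the B cell receptor complex, at 2464 and 2400 TPM. They had 6 and 7 neutrophil markers. No doublet caller was run, and whether either well held more than 1 cell was not tested. Outside these, 0 neutrophils had 3 or more B cell markers. Without the 5 cells H2-Aa was listed at 0 in every cell, and H2-Aa, H2-Ab1 and H2-Eb1 were all listed at 0 in the rest of the 40 other cells.

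Ciita, the coactivator of class II genes, was above 0 in 4 cells. Of these, 3 were among the 5 cells: both B cell marker cells (5.44 and 57.4 TPM) and the neutrophil of replicate 1 with B cell markers (91.8 TPM). It was listed at 0 in the cell with the most class II RNA. The fourth was a granule-middle neutrophil at 0.43 TPM with no class II gene above 0.

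Cd74, the invariant chain that guards the class II groove, was the member of this pathway seen most widely. The gene lies outside the MHC, on chromosome 18 (60803848 to 60812652). It was above 0 in 11 neutrophils (3.85%, exact 95% interval 1.94% to 6.78%) and in 11 of 40 other cells (27.5%, 14.6% to 43.9%). With no class II chain beside it, Cd74 was above 0 in 8 other cells, at 32.2 to 391 TPM, and in 9 neutrophils, at 3.75 to 166.25 TPM. Its log2 fold of neutrophils over other cells was -4.77 (SE 0.52, adjusted p = 0.000311, limma). That call was lost without the 5 other cells with B cell or with T or NK cell markers, of which both B cell marker cells had Cd74 above 0 (-2.93, adjusted p = 0.581, limma). It was also lost in cells with 1000 to 2500 genes above 0 (-3.77, adjusted p = 0.438, limma). The median number of genes above 0 was 1604.5 in all neutrophils and 3027.5 in all other cells, and its part in these shares was not tested.

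**Figure D4:**
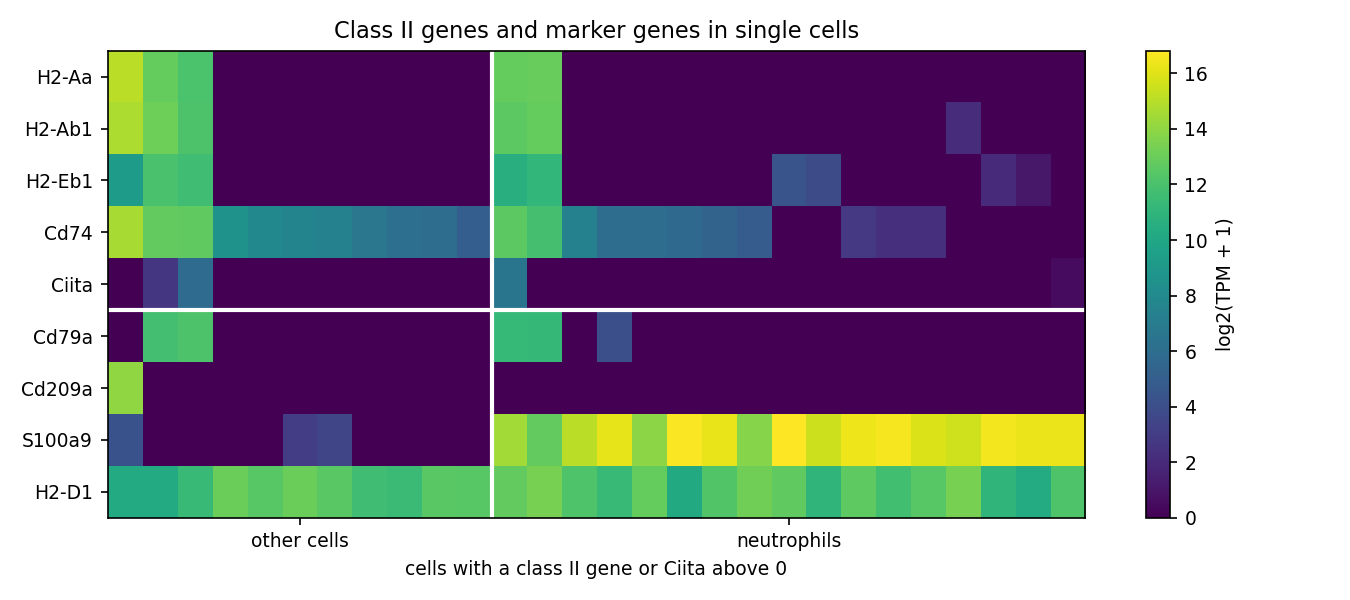
Class II members, the B cell marker Cd79a, Cd209a, S100a9 and H2-D1 in the 28 cells with a class II gene or Ciita above 0, 11 other cells on the left and 17 neutrophils on the right. Each column is a cell and colour is log2(TPM + 1); 3 other cells and 2 neutrophils at the left of each block carry H2-Aa, H2-Ab1, H2-Eb1 and Cd74 together, and both of those neutrophils also carry Cd79a.

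Summed over H2-K1, H2-D1 and B2m, class I was above 0 in every cell and averaged 7768 ± 187.2 TPM in neutrophils and 10501 ± 762 TPM in other cells (SD, n = 2). The log2 ratio of summed class I to summed class II was 5.54 and 5.87 in neutrophils of replicates 1 and 2 and 2.29 and 1.11 in other cells. It was 4.77 ± 0.29 in granule-low, 12.4 ± 0.53 in granule-middle and 12.8 ± 1.19 in granule-high cells (SD, n = 2). The low granule-low ratio came with the 2 neutrophils with B cell markers. Without the 5 cells it was 12.6 ± 2.28 in granule-low cells (SD, n = 2), 12.2 in all neutrophils and 8.42 in other cells.

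Other genes of the pathways were read from lists of 27 class I and 23 class II genes. Between granule classes 21 of the class I genes were tested; 3 rose in granule-low cells and 0 fell, where 8.57% of all genes tested rose and 3.83% fell. They were H2-Q10 (log2 fold 5.49, SE 0.41, adjusted p = 7.07e-05, limma), H2-K2 (5.06, SE 0.89, adjusted p = 0.00794, limma) and Irf1, an interferon-induced activator of class I genes (2.69, SE 0.34, adjusted p = 0.00152, limma). H2-Q10 averaged 953 ± 122.1 TPM in granule-low and 21.02 ± 8.84 TPM in granule-high cells (SD, n = 2). H2-Q10 and H2-K2 resemble the members H2-K1 and H2-D1 in sequence, so these values are uncertain. Tap2 (1.30, adjusted p = 0.0612, limma) and Psmb9 (0.96, adjusted p = 0.157, limma), the partners of Tap1 and Psmb8, did not pass.

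Of the class II list 9 genes were tested between granule classes and 2 rose, Unc93b1, which carries nucleic acid sensing receptors to endosomes (1.47, adjusted p = 0.0105, limma), and Ifngr2, a chain of the interferon gamma receptor (1.43, adjusted p = 0.0271, limma). Both lost the call with rescaled TPM, and 8.57% of all genes tested rose.

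Against other cells 25 class I genes were tested; 1 rose in neutrophils and 10 fell, where 5.23% of all genes tested rose and 17.4% fell. H2-Q10 rose (1.92, adjusted p = 0.0111, limma). Irf8, a myeloid transcription factor, averaged 230.99 ± 126.7 TPM in other cells and 0.56 ± 0.78 TPM in neutrophils (SD, n = 2). It entered the test only through its level in other cells, so its fold of -7.20 is a description. The chaperone Canx (-2.42), the peptide editor Tapbpl (-3.61), the proteasome activators Psme1 (-1.75) and Psme2 (-1.66) and the nonclassical H2-Q7 (-3.33) also fell. The other 4, H2-M3, Psmb10, Pdia3 and Tapbp, fell but lost the call with rescaled TPM.

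Of the class II list 17 genes were tested against other cells; 0 rose in neutrophils and 8 fell, against the same 5.23% and 17.4% of all genes. Ctss and Lgmn, proteases that trim the invariant chain and antigen, fell, with log2 folds of -7.17 and -4.72. Ifi30, a lysosomal thiol reductase (-7.13), and H2-DMa (-5.14) and H2-DMb1 (-5.66), which load the class II groove, also fell. The others that fell were Cd83 (-3.55), Ifngr1 (-2.21) and Unc93b1 (-1.70). Ctss is also one of the monocyte markers. Genes near 0 in neutrophils entered these tests through their level in other cells, so the counts are a description. Unlike H2-Aa, which was above 0 in 3 other cells, Ctss was above 0 in 31 of 40.

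The granule-low class against other cells gave 1 rise and 7 falls among 24 class I genes tested, and 0 rises and 6 falls among 16 class II genes, where 4.61% of all genes tested rose and 14% fell. H2-Q10 rose there (3.17, adjusted p = 0.00540, limma), and Ifi30 (-7.43), Irf8 (-6.68), H2-DMb1 (-6.28), H2-DMa (-6.01) and Ctss (-5.78) fell. Irf8, H2-DMb1, Psmb10 and Tapbpl were low in granule-low cells, at 1.66, 1.87, 2.76 and 2.87 TPM. Ctss was above 0 in 7 of 94 granule-low cells. These genes entered this test through their level in other cells, so the counts are a description. Ifi30 and H2-DMa were also low, at 5.66 and 8.12 TPM in granule-low cells.

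Genes were also ranked by how closely they followed class I from cell to cell. Ranked by the smallest Spearman correlation with mean class I over the 4 plates of neutrophils, among 2250 genes, the 5 closest were LOC100038947, Selplg, Ftl1, Gcnt2 and Amica1, with smallest correlations of 0.35 to 0.30. Cells share library depth and the TPM total, and correlations of this size in sparse values are a description. Among the members themselves, the correlation of H2-K1 with H2-D1 over neutrophils of a plate was 0.22 to 0.32, that of H2-D1 with B2m 0.18 to 0.36, that of H2-K1 with B2m 0.05 to 0.31, and that of Tap1 with Psmb8 -0.25 to 0.12.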

How the data were processed

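The authors deposited TPM values made with RSEM on mm10, per the submitters' processing notes. The sources used here do not give versions, aligner or annotation. Each cell sums to 1000000. Of 384 labelled cells, 326 had a column (286 neutrophils, 131 and 155 in replicates 1 and 2, and 40 other cells) and the other 58 were not analysed here. No 2 cells had identical values. Symbols were taken from the table, positions from GENCODE and promoters from RefSeq.

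TPM was averaged per replicate and cell class. limma 3.58.1 (R 4.3.3; robust, with a trend) was fitted to log2(mean TPM + 1) of the 4 averages, with the replicate as a block, since both classes come from the same replicate. Benjamini-Hochberg adjustment over all genes tested was used at 0.05. Genes with a mean of at least 5 TPM over the 4 averages and above 0 in at least 10 cells were tested, without the genes that define the classes. With 1 residual degree of freedom, the p-values rest on the variance pooled over genes. Folds on this scale understate the change of low genes. Shares have exact 95% binomial intervals, for counting error only, and a count of 0 allows 3 cells. The fit was tested on simulated data. Members were named by the rule above. From the pathway lists, genes past the threshold were named, with a planned limit of 8 per direction. That limit was passed for neutrophils against other cells. For granule-low neutrophils against other cells, some genes were given only as counts. Tap2 and Psmb9 were named as the partners of Tap1 and Psmb8, though they did not pass. The members, lists and classes were chosen with earlier results of these data known. The genes most like class II over other cells are not reported here.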

Additional observations from a re-analysis of the deposited data

How the results depend on the processing

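The counts of called genes depended on the settings in every comparison. The heavy chain folds between granule classes kept their sign in every setting, but that of H2-D1 in neutrophils against other cells did not. Counts are given with their percent of genes tested. For neutrophils against other cells (1602 calls, 22.6%) the count was 0 without a filter on low values (2313 at an unadjusted p under 0.05, limma), 0 in cells with 1000 to 2500 genes above 0 (1100 at an unadjusted p under 0.05, limma), 3080 (43.4%) with averages of log2(TPM + 1) and 988 (14.1%) at the 50000 TPM threshold. For granule-low against granule-high cells (641 calls, 12.4%) it was 393 (7.60%) with pseudocount 0.1, 7 (0.0571%) without the filter, 1689 (32.7%) with averages of log values, 6.10% of 5396 genes with the score as a residual on genes detected, and 393 (7.67%) without the 2 neutrophils with 3 or more class II genes above 0. For granule-low neutrophils against other cells (1091 calls, 18.6%) it was 715 (12.2%) and 1774 (30.3%) with pseudocounts 0.1 and 10, 51 (0.391%) without the filter, 3149 (53.7%) with averages of log values and 1 (0.0298%) in the 1000 to 2500 gene band. Without the replicate block the counts were 1144 (16.1%), 550 (10.6%) and 822 (14.03%); there Psmb8 against other cells (adjusted p = 0.0973, limma) and B2m in granule-low against other cells (adjusted p = 0.0753, limma) lost their calls. The causes were not tested.

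Over the 17 alternatives for granule-low against granule-high cells, H2-D1 ran from 1.56 to 2.53 and H2-K1 from 1.41 to 2.28, and each lost its call in 1, the fit without the filter (adjusted p = 0.0505 and 0.110, limma). Reversed signs were seen for H2-D1 against other cells (-0.19 and -0.20), Psmb8 between granule classes (-0.90) and Tap1 in granule-low against other cells (0.033, 0.36, 0.15 and 0.23); none of these passed the test. Without a replicate, with no test, Psmb8 (0.14) and Tap1 (0.57) in granule-low against other cells also turned positive. Leaving out a replicate leaves no residual degrees of freedom, so it gave values with no test. The log2 folds between granule classes were then 1.98 to 2.14 for H2-D1, 1.93 to 2.21 for H2-K1 and 0.63 to 0.94 for B2m. Against other cells Cd74 ran from -5.88 to -3.66.

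The log2 class I to class II ratio of neutrophils (5.70) was 12.33 at 50000 TPM, 12.29 with averages of log values and 12.23 without the 5 class II cells; without a replicate it was 5.54 to 5.87. That of other cells (1.70) was 10.62 with averages of log values and 8.42 without the 5 cells; without a replicate it was 1.11 to 2.29. The share of neutrophils with a class II gene above 0 (mean of replicates 5.63%) was 4.57% at 50000 TPM, 3.52% when 10 TPM was asked for, 4.97% without the 5 cells, and 5.16% to 6.11% without a replicate. In other cells (27.7%) it was 24.2% at 50000 TPM, 22.02% without the 5 cells, and 26.1% to 29.4% without a replicate. Alternatives that leave out cells with 5 or more neutrophil markers or with class II genes were chosen after seeing the data.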

Other observations

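The members also varied among the other cells by the markers those cells carried. The 3 cells with T or NK cell markers (1 in replicate 1, 2 in replicate 2) had 2555, 6743 and 6866 TPM of H2-K1 and none of the class II members above 0. The 28 cells with monocyte markers had a lowest, median and highest H2-K1 of 238.65, 979 and 4989 TPM, and H2-D1 of 1015, 2549 and 8331 TPM. B2m was above 0 in all 28, and Psmb8 in 21. Of these monocyte marker cells, 1 had H2-Aa above 0, the cell with Cd209a described in the report, and 8 had Cd74 above 0. The 7 cells with fewer than 3 markers of any of these lists had a median of 6356 TPM of H2-D1 and 623 TPM of H2-K1, and 6 of them had 5 or more neutrophil markers. These subsets are small and no test was made between them.

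The 23 neutrophils with 5 or more proliferation genes above 0 lay mostly in the granule-middle class (16 cells, against 2 granule-low and 5 granule-high). H2-D1 averaged 1118 and 1651 TPM in those of replicates 1 and 2, H2-K1 382.4 and 589 TPM, and B2m 1609 and 2026 TPM. Granule-high cells with fewer than 5 proliferation genes above 0 averaged 1775 and 1992 TPM of H2-D1, so the replicate means of the 2 groups did not overlap, and 305.1 and 273.03 TPM of H2-K1. The cycling cells had a median of 2873 genes above 0 and those granule-high cells 1979. One of the 23 was the neutrophil of replicate 2 with B cell markers. It had 10315 TPM of H2-D1 and 2349 TPM of H2-K1, so it raised the replicate 2 averages of the cycling cells. These values were not tested.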
